A study of Rattus norvegicus with 12 samples.

Results

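RNA sequencing of the left ventricle was used to ask how gene expression in rats with a myocardial infarction differed between those given urolithin A and those given vehicle. The comparison took in 8 of the 12 libraries of the series, 1 library per rat, chosen by their sample labels: rats 36, 57, 61 and 89 (MI) and rats 29, 58, 64 and 66 (MI + UA). The MI rats were male Wistar rats whose left anterior descending coronary artery was permanently ligated at 7 weeks of age and which then received carboxymethylcellulose vehicle by daily gavage for 8 weeks. The MI + UA rats had the same surgery and received urolithin A at 50 mg/ml by daily gavage over the same 8 weeks. The sources describe the dose and the start of treatment in different ways, and 50 mg/ml is a concentration, not a dose per body weight. The 4 Sham rats, opened without ligation and given vehicle, were of the same age and are shown beside the infarcted rats for reference. None of the animals carried a transgene. RNA came from sections of fixed and embedded tissue, cut from blocks of the middle region, so a library can hold surviving muscle and scar together, and the share of scar in a section was not set by the design. The sample label of rat 66 gives surgery with urolithin A, whereas the study's table of echocardiography lists a rat of this number among the vehicle-treated infarcted rats. Rat 66 stays with its label here, and values with rat 66 moved to MI or left out are given for many of the genes and lists that they move. An extra MI + UA library, left out by the study, is not analysed here.

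Urolithin A is a compound that gut bacteria make from the ellagitannins of pomegranate, berries and nuts, and it is known as an inducer of mitophagy, the removal of damaged mitochondria by autophagy. In the best known route the kinase PINK1 builds up on a depolarised mitochondrion, its surface is tagged with ubiquitin, and adaptor proteins link it to the autophagosome, which then fuses with a lysosome. The infarcted ventricle is known for a return of fetal genes such as Nppa and Myh7, loss of the adult α-myosin gene Myh6, lower expression of genes for fatty acid oxidation and respiration, and a collagen-rich scar. The number of mitophagy events is not read by RNA sequencing, which measures only how much transcript of each gene is present.

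Reads on genes numbered between 6829591 and 12743184 per MI library and between 6819444 and 19031695 per MI + UA library, and rats 29 and 66 had the deepest libraries of MI + UA. Reads on genes made up 44.3% ± 0.705 of the counted reads in MI against 45.9% ± 2.02 in MI + UA (mean ± SD of 4 rats each, as in all values of this form); the two-sided exact permutation p was 0.143, where 70 groupings allow no p below 0.0286. Rat 58 of MI + UA had the lowest share of all, 42.9%. The share of gene reads on mitochondrially encoded genes was 53.4% ± 3.05 in MI against 53.9% ± 2.76 in MI + UA (exact permutation p = 0.743). Depth and the number of genes detected at equal depth also differed by less than the spread between rats (exact permutation p = 0.629 and 1), and with adjustment over the 4 measures the smallest p was 0.572. The libraries showed heart muscle in every rat: the 7 tested markers of cardiomyocytes had a mean log2 CPM (CPM being the count of a gene relative to the library's TMM-scaled total) between 10.4 and 10.8 in each of the 8 infarcted rats. Of the 4 atrial markers, Myl4, Myl7 and Sln were low, at group means between 0.217 and 4.35 CPM, while the other one, Nppa, which the loaded ventricle also expresses, was abundant. Neither the labels nor the study's text gives a sequencing batch.

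No gene differed between MI + UA and MI at an adjusted p under 0.05, and for most genes above an average log2 CPM of 1 a difference beyond 1.5-fold lay outside the 95% interval. Of 18182 genes tested, 0 (0%) passed in edgeR's quasi-likelihood test with Benjamini-Hochberg adjustment, where the smallest adjusted p was 1, and DESeq2 also called 0, with a smallest adjusted p of 0.879. At an unadjusted p under 0.05 there were 689 genes (3.79%) in edgeR, 339 of them higher (1.86%) and 350 lower (1.92%) in MI + UA, and 481 in DESeq2. The shares of 3.79%, 1.86% and 1.92% are the background for each count of list members at an unadjusted p under 0.05. In all, 15 genes had an unadjusted p under 0.001. Among the 11986 genes with an average log2 CPM of at least 1, the 4 MI + UA rats all lay above or all below the 4 MI rats at 243 genes (2.03%), 126 of them higher (1.05%) and 117 lower (0.976%). The infarction itself, tested in the same fit, gave 2064 genes at an adjusted p under 0.05 (11.4%), 1058 higher (5.82%) and 1006 lower (5.53%) in MI than in Sham.

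The size of the differences was small as well as uncertain. Over all tested genes the median log2 fold change of MI + UA against MI was 0.00468, and 51% of genes were higher. Among the 11986 genes with an average log2 CPM of at least 1, the median absolute log2 fold change was 0.0925, against 0.202 between MI and Sham. An absolute log2 fold change above 0.5 was found at 268 of these genes (2.24%), against 1859 (15.5%) between MI and Sham, and one above 1 at 24 genes (0.2%), against 353 (2.95%). The 95% interval of the difference, gene by gene and unadjusted, lay wholly within 1.5-fold either way at 8975 of these genes (74.9%) and within 2-fold at 11508 (96%). Below an average log2 CPM of 1 it lay within 1.5-fold at 5 of 6196 genes, so that differences of that size were not detectable for weakly expressed genes at this depth. The median standard error of the log2 fold change was 0.673 below an average log2 CPM of 1, 0.229 between 1 and 3, 0.132 between 3 and 5, and 0.0927 from 5 upward.

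**Figure D1:**
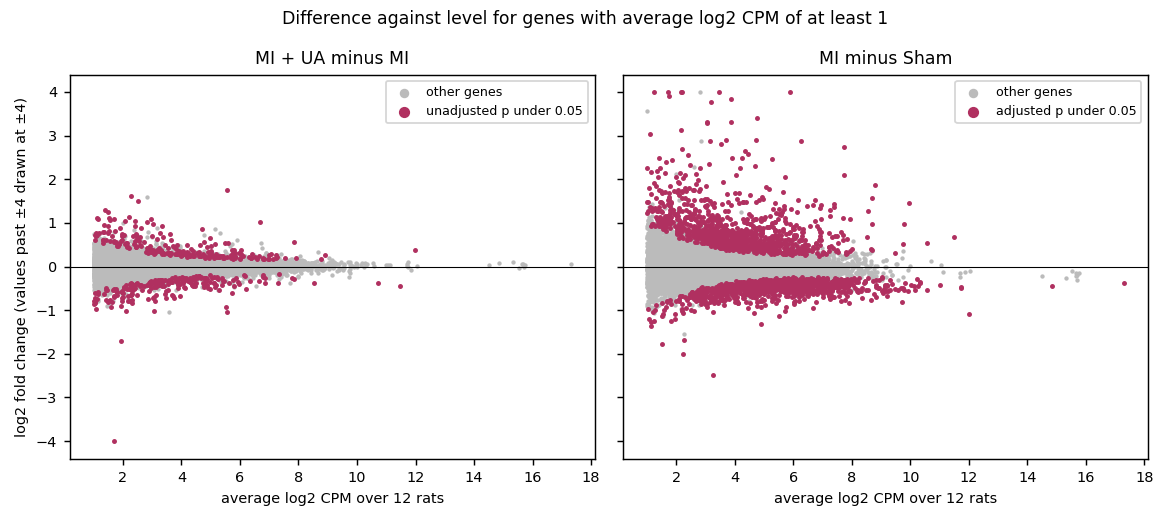
Log2 fold change (vertical axis) against average log2 CPM over the 12 rats (horizontal axis) for the 11986 genes with an average log2 CPM of at least 1, each point 1 gene; the left panel shows MI + UA minus MI with genes at an unadjusted p under 0.05 in colour, the right panel MI minus Sham with genes at an adjusted p under 0.05 in colour. Values past 4 either way are drawn at 4; 24 genes on the left and 353 on the right lie more than 1 from zero, and 0 genes on the left had an adjusted p under 0.05.

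Among genes of the contractile apparatus, the myosin heavy chain gene Myh6 and the M-band gene Myom3 stood nearer to the Sham rats in MI + UA than in MI. Myh6 encodes the fast α-myosin of the adult rat ventricle, and its level was 2650, 2430, 2860 and 3150 CPM in MI rats 36, 57, 61 and 89 and 3530, 3270, 3480 and 4220 CPM in MI + UA rats 29, 58, 64 and 66. Every MI + UA rat lay above every MI rat, and every Sham rat, at 4710 to 6590 CPM, lay above both groups. The log2 fold change of MI + UA against MI was 0.39 (SE, standard error, 0.11, 95% interval 0.16 to 0.61, edgeR unadjusted p = 0.00168, adjusted p = 1), and that of MI against Sham was -1.08 (edgeR adjusted p = 1.98e-06). Both contrasts use the same 4 MI rats and are therefore not independent of each other, here and wherever they are set side by side. With rat 66 moved to MI the log2 fold change of Myh6 was 0.16, and without rat 66 it was 0.31.

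Myh7, the slow β-myosin that the stressed rat heart expresses again, was at 4240, 4190, 2700 and 3430 CPM in the MI rats and 3090, 2180, 2600 and 2840 CPM in the MI + UA rats. The groups overlapped, with MI rat 61 among the MI + UA rats. The log2 fold change was -0.44 (SE 0.21, edgeR unadjusted p = 0.0431, adjusted p = 1), and it was -0.41 with rat 66 moved to MI. The ratio of Myh6 to Myh7 counts was 0.625, 0.58, 1.06 and 0.918 in the MI rats and 1.14, 1.5, 1.34 and 1.49 in the MI + UA rats, with group means of 0.796 ± 0.231 and 1.37 ± 0.166. This ratio was computed after the values of both genes had been seen and is given with no test. In the Sham rats it ran from 1.28 in rat 17, which lay among the MI + UA rats, to 4.46 in rat 12. Both genes lie side by side and are close in sequence, so reads between them may be shared out imperfectly.

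**Figure D2:**
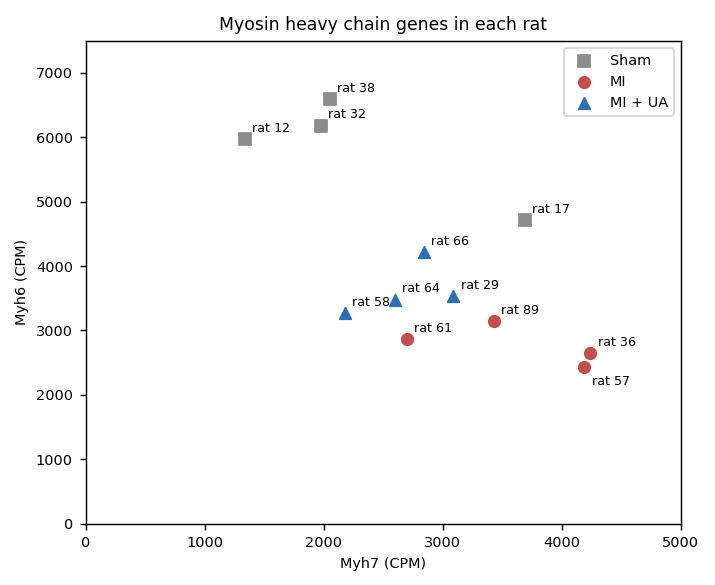
Myh6 (vertical axis, CPM) against Myh7 (horizontal axis, CPM) in each of the 12 rats, 1 point per rat, with squares for Sham, circles for MI and triangles for MI + UA. The MI + UA points lie above all MI points on the Myh6 axis, while on the Myh7 axis MI rat 61 falls among the MI + UA rats.

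Myom3 encodes myomesin 3, which cross-links myosin filaments at the M-band. It was at 2.19, 1.41, 2.91 and 1.14 CPM in the MI rats and 3.94, 3.21, 3.25 and 6.13 CPM in the MI + UA rats, against 7.76 ± 0.868 CPM in Sham. The groups did not overlap, and rat 66 was the highest infarcted rat. Its log2 fold change was 1.14 (SE 0.27, edgeR unadjusted p = 0.000432, adjusted p = 1), which became 0.86 without rat 66 and 0.26 with rat 66 moved to MI. Nebl, a thin-filament protein of the Z-disc, was at 115 ± 7.43 CPM in MI and 139 ± 23.5 CPM in MI + UA, with a log2 fold change of 0.28 (SE 0.10), or 0.019 with rat 66 moved to MI, and overlapping groups. Of the 25 sarcomere genes tested, 16 were higher and 9 lower in MI + UA; Myom3, Myh6 and Nebl were those at an unadjusted p under 0.05, all higher, beside 1.86% higher among all genes, and the median log2 fold change was 0.030 (-0.0167 without rat 66), against 0.00468 over all genes tested. All 3 had their highest infarcted value in rat 66. Abundant partners such as Tpm1 (0.11), Ttn (0.08), Tnnt2 (0.044) and Mybpc3 (-0.07) had log2 fold changes close to zero, with standard errors between 0.0724 and 0.101. With rat 66 moved to MI the median of the sarcomere genes was -0.0615.

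The other genes with the smallest unadjusted p among those higher in MI + UA came from several functions. Nek10, a kinase of the NIMA-related family, was at 1.61, 1.41, 1.66 and 1.63 CPM in the MI rats and 2.34, 3.08, 3.52 and 4.39 CPM in the MI + UA rats, without overlap. Its log2 fold change was 1.06 (SE 0.24, edgeR unadjusted p = 0.000295, adjusted p = 1), and it was 0.36 with rat 66 moved to MI. The Sham rats were at 3.4 ± 0.25 CPM, so that Nek10 in MI + UA covered the Sham level while MI did not reach it. Erbb4 encodes the neuregulin receptor through which endothelial cells signal survival and growth to cardiomyocytes. It was at 5.56, 6.74, 4.05 and 5.05 CPM in the MI rats and 8.11, 6.55, 10.2 and 9.4 CPM in the MI + UA rats. Only rat 58 of MI + UA fell inside the range of MI, and the log2 fold change was 0.70 (SE 0.17), or 0.40 with rat 66 moved to MI.

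Slc5a3, a sodium-coupled carrier for myo-inositol that cells use to balance osmotic pressure, was at 23.9, 29.3, 22.3 and 22.8 CPM in the MI rats and 43.6, 29.7, 38.2 and 41.1 CPM in the MI + UA rats. The groups did not overlap, though MI rat 57 and MI + UA rat 58 nearly met. Its fold was 0.65 on the log2 scale (SE 0.16), and it did not pass in MI against Sham (log2 fold change -0.31, edgeR adjusted p = 0.263). Atf3, a transcription factor of the acute stress response, was at 5.04, 6.59, 4.15 and 4.81 CPM in the MI rats and 10.3, 5.65, 7.04 and 16.5 CPM in the MI + UA rats. Rats 29 and 66 were the high ones, and the log2 fold change was 1.01 (SE 0.26), 0.63 without rat 66 and 0.037 with rat 66 moved to MI. Kcna2, a voltage-gated potassium channel, was at 27.3 ± 3.54 CPM in MI and 38.7 ± 9.56 CPM in MI + UA, where rat 58 alone, at 24.5 CPM, lay with the MI rats. Ccdc63 and Ccdc117, both coiled-coil genes, had log2 fold changes of 1.08 (SE 0.30) and 0.75 (SE 0.22), with overlapping groups in each, and 0.32 and 0.31 with rat 66 moved to MI.

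Slitrk6, Cmtm5 and Slitrk2 were also among the genes with the smallest p or the largest fold, and each was highest in rat 58. Slitrk6, a membrane protein of nerve and sensory tissue, was at 3.92 to 6.35 CPM in the MI rats and at 10.2, 21.6, 7.17 and 7.26 CPM in the MI + UA rats, without overlap (log2 fold change 1.10, SE 0.28, or 0.65 without rat 58). Cmtm5 had a log2 fold change of 1.12 (SE 0.31), with rat 58 at 6.68 CPM and the other MI + UA rats at 2.03 to 3.66 CPM. Slitrk2, a relative of Slitrk6, was at 13.4 CPM in rat 58 and between 1.08 and 2.91 CPM in the 7 other infarcted rats, with a fold of 0.097 on the log2 scale without rat 58. Of the 6 markers of Schwann cells, the glia that wrap cardiac nerves, all 6 had positive log2 fold changes (median 0.49), and Sox10 was at an unadjusted p under 0.05. Sox10, which sets the identity of these glia, was at 28.3 CPM in rat 58 and between 7.21 and 11.6 CPM in the 7 other infarcted rats. Without rat 58 the median of the 6 markers was -0.0518. In bulk tissue a difference in the number of cells of a type and one in RNA per cell cannot be told apart, here or in any other comparison. Fras1, an extracellular matrix protein of basement membranes, was at 0.804, 1.1, 2.08 and 2.12 CPM in the MI rats and 5.43, 3.72, 3.52 and 2.03 CPM in the MI + UA rats, where rat 66 was the low one (log2 fold change 1.26).

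**Figure D3:**
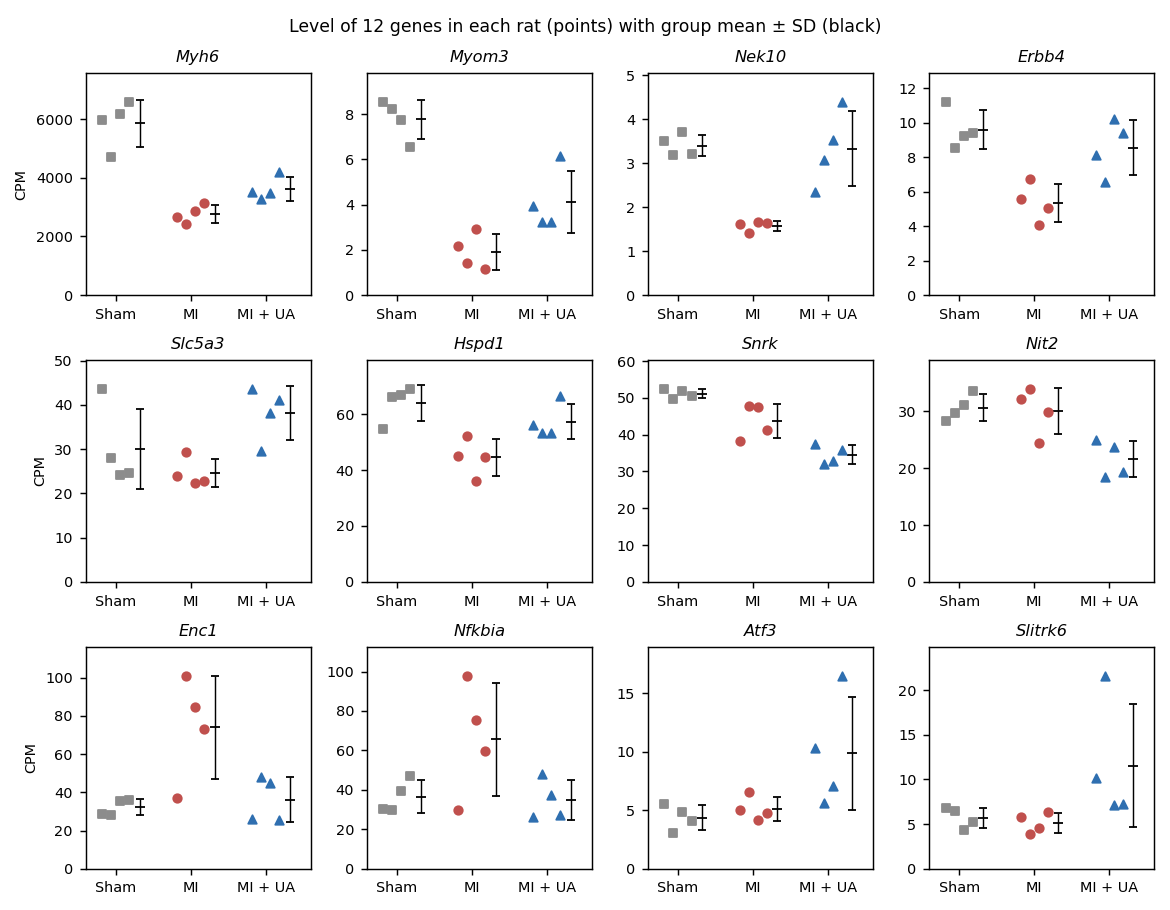
Level in CPM (vertical axis, starting at 0) of 12 genes in each rat by group (horizontal axis), 1 point per rat, with the group mean and SD in black beside the points. Myh6, Myom3, Nek10, Slc5a3, Hspd1 and Slitrk6 are higher in every MI + UA rat than in any MI rat, Snrk is lower in every MI + UA rat, and in Enc1 and Nfkbia MI rat 36 lies among the MI + UA rats.

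The smallest unadjusted p of all belonged to Enc1, which was lower in MI + UA. Enc1 encodes a kelch-repeat protein that binds actin, and it was at 37.2, 101, 84.6 and 73.4 CPM in MI rats 36, 57, 61 and 89 and 26.2, 48.3, 44.8 and 25.7 CPM in MI + UA rats 29, 58, 64 and 66. MI rat 36 lay inside the range of MI + UA, and the 3 other MI rats lay well above it. The log2 fold change was -1.05 (SE 0.23, 95% interval -1.53 to -0.57, edgeR unadjusted p = 0.000183, adjusted p = 1). Without MI rat 36 the log2 fold change was -1.28 and the edgeR adjusted p was 0.0155, and with rat 66 moved to MI the log2 fold change was -0.70. The Sham rats were at 32.1 ± 4.18 CPM, and MI against Sham had a log2 fold change of 1.20 (edgeR adjusted p = 0.00199).

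In Nfkbia, Myc and Olr1058, as in Enc1, rat 36 was the lowest MI rat and lay inside the range of MI + UA. Nfkbia encodes the inhibitor that holds NF-κB in the cytoplasm and is itself a target of NF-κB. It was at 29.8, 97.8, 75.5 and 59.6 CPM in the MI rats and 26.4, 47.9, 37.6 and 27.5 CPM in the MI + UA rats, a log2 fold change of -0.92 (SE 0.25). Myc, the growth-promoting transcription factor, was at 5.78, 19.3, 11.2 and 8.23 CPM in the MI rats and 4.46, 8.99, 6.09 and 6.41 CPM in the MI + UA rats (log2 fold change -0.75, SE 0.29), and here MI rat 89 also lay below MI + UA rat 58. Without MI rat 57 the fold of Myc was -0.39 on the log2 scale. The olfactory receptor gene Olr1058 was at 1.9 CPM in MI rat 36 and 6.84 to 11.8 CPM in the other MI rats, against 1.07 to 4.11 CPM in MI + UA. Olfactory receptors form a large family of similar genes, so the reads counted for Olr1058 may be uncertain.

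A second set of lower genes varied less from rat to rat. Snrk, a kinase related to AMPK, was at 38.4, 47.7, 47.6 and 41.4 CPM in the MI rats and 37.5, 32, 32.9 and 35.9 CPM in the MI + UA rats, without overlap (log2 fold change -0.33, SE 0.09). Pan2, the catalytic part of a deadenylase that shortens poly(A) tails, was at 16.8 to 17.8 CPM in MI and 11.2 to 14 CPM in MI + UA, again without overlap (log2 fold change -0.43, SE 0.12). Zfp317, a zinc finger protein, Efl1, a GTPase of ribosome assembly, and Cdk20, a cyclin-dependent kinase, likewise did not overlap, with log2 fold changes of -0.35, -0.47 and -0.72. These 5 genes kept negative values with rat 66 moved to MI, at -0.29 for Snrk, -0.42 for Pan2, -0.33 for Zfp317, -0.34 for Efl1 and -0.47 for Cdk20. Nit2, an omega-amidase, was at 32.1, 33.9, 24.5 and 29.8 CPM in the MI rats and 24.9, 18.4, 23.7 and 19.4 CPM in the MI + UA rats, where rats 61 and 29 changed places by less than 1 CPM.

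Aox4, an aldehyde oxidase, and Cytl1, a small secreted protein, were both higher in MI than in Sham and lower in MI + UA than in MI. Aox4 was at 43.3 ± 8.49 CPM in MI and 30.5 ± 4.86 CPM in MI + UA, with log2 fold changes of -0.53 (SE 0.14) against MI and 1.08 for MI against Sham (edgeR adjusted p = 5.89e-05). Cytl1 had a log2 fold change of -0.49 (SE 0.15) against MI and 1.11 for MI against Sham (edgeR adjusted p = 8.98e-05). In both genes MI and MI + UA overlapped. Adh6, an alcohol dehydrogenase, was at 3.83 to 8.12 CPM in the MI rats and at 0.857, 6.04, 0.677 and 3.77 CPM in the MI + UA rats (log2 fold change -1.03, SE 0.44, or -0.66 without rat 29), where rats 29 and 64 were the low ones. Col2a1, the cartilage collagen, was at 29.6 CPM in MI rat 36 and at 0 in the 3 other MI rats, and in MI + UA it was above 0 in rat 66 alone, at 0.0563 CPM, so that no fold is given.

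Genes of mitochondrial energy metabolism were mostly a little higher in MI + UA, by amounts of which none passed adjustment. All 23 tested genes of pyruvate oxidation and the TCA cycle had positive log2 fold changes, between 0.033 and 0.17 with a median of 0.084, and 0 of them had an unadjusted p under 0.05. The mean log2 CPM of these genes was 7.09, 7.14, 6.98 and 7.02 in MI rats 36, 57, 61 and 89 and 7.15, 7.07, 7.09 and 7.26 in MI + UA rats 29, 58, 64 and 66. The groups overlapped, and rat 66 was the highest. Mpc2, a subunit of the mitochondrial pyruvate carrier, was the member with the smallest unadjusted p, with a log2 fold change of 0.17 (SE 0.09). In MI against Sham 21 of the 23 genes were lower at an adjusted p under 0.05, beside 5.53% lower among all genes, with a median log2 fold change of -0.46. Genes of 1 pathway measured in the same 8 rats are not independent observations. With rat 66 moved to MI their median was -0.00746.

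The respiratory chain showed the same picture. In complex I, 29 of 35 nuclear-encoded genes were higher, at a median of 0.087 on the log2 scale, and Ndufb5 was at an unadjusted p under 0.05 (log2 fold change 0.19, SE 0.09). Averaged over complex I, log2 CPM was 4.34, 4.38, 4.29 and 4.32 in MI and 4.52, 4.34, 4.49 and 4.48 in MI + UA, where rat 58 lay with the MI rats and the 3 others lay above them. All 4 genes of complex II and all 9 of complex III and cytochrome c were higher, with medians of 0.088 and 0.053, none at an unadjusted p under 0.05. In complex IV 10 of 11 genes were higher, with a median of 0.11, and Cox7a1, the muscle form of subunit VIIa, was at an unadjusted p under 0.05: it was at 5.63, 4.86, 4.46 and 3.75 CPM in the MI rats and 7.88, 5.39, 6.63 and 5.68 CPM in the MI + UA rats (log2 fold change 0.46, SE 0.19). Of 17 tested gene IDs of ATP synthase, where Atp5mc1 and Atp5mk each have a pair of IDs, 15 were higher, with a median of 0.099. Against Sham, MI was lower at an adjusted p under 0.05 in 24 of the 35 genes of complex I and 13 of the 17 of ATP synthase, beside 5.53% among all genes. With rat 66 moved to MI the medians were 0.013 for complex I, 0.022 for complex II, 0.035 for complex III, 0.0072 for complex IV and 0.043 for ATP synthase.

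Transcripts of the mitochondrial genome itself had values on both sides of zero. Of the 13 mitochondrially encoded proteins 9 were higher and 4 lower in MI + UA, with a median of 0.026 (-0.0402 without rat 66), and 0 were at an unadjusted p under 0.05. Of the 70 mitochondrial ribosomal protein genes tested, 43 were higher and 27 lower, with a median of 0.058; Mrpl28 (log2 fold change 0.33, SE 0.15) and Mrps30 (0.23, SE 0.11) were at an unadjusted p under 0.05, beside 1.86% higher among all genes. The median of the 70 was 0.0244 without MI rat 36 and 0.0235 with rat 66 moved to MI. Among 15 genes that copy and transcribe mitochondrial DNA, 9 were higher, and Mgme1, a nuclease that trims replication ends, was at an unadjusted p under 0.05, at 0.867 ± 0.608 CPM in MI and 1.7 ± 0.187 CPM in MI + UA. Tfam, which packs mitochondrial DNA into nucleoids, was at 6.67 ± 1.22 CPM in MI and 6.17 ± 0.678 CPM in MI + UA, with a 95% interval of its log2 fold change from -0.45 to 0.26.

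Fatty acid oxidation is the main fuel pathway of the healthy heart, and MI was lower than Sham at an adjusted p under 0.05 in 26 of its 29 tested genes, beside 5.53% among all genes. In MI + UA 17 of the 29 were higher and 12 lower than in MI. Its median log2 fold change was 0.038, or -0.00493 without rat 66 and -0.0388 with rat 66 moved to MI. The members at an unadjusted p under 0.05 were Etfdh and Etfa, which pass electrons from fatty acid oxidation to ubiquinone; both were higher, beside 1.86% higher among all genes in this contrast. Etfa was at 84.6 to 96.4 CPM in the MI rats, 96.6 CPM in MI + UA rat 64 and 103 CPM or more in the 3 other MI + UA rats, so that the groups nearly met. On the log2 scale the difference was 0.17 for Etfa (SE 0.08) and 0.22 for Etfdh (SE 0.09), which became 0.096 and 0.035 with rat 66 moved to MI. Ucp3, an uncoupling protein, was the lowest member at -0.31 (SE 0.18). Genes of glucose uptake and glycolysis were higher in 16 of 20 cases with a median of 0.052 (0.00917 with rat 66 moved to MI). Slc2a4, the insulin-responsive glucose carrier, was at 71.6 ± 5.86 CPM in MI and 83.5 ± 16.7 CPM in MI + UA.

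**Figure D4:**
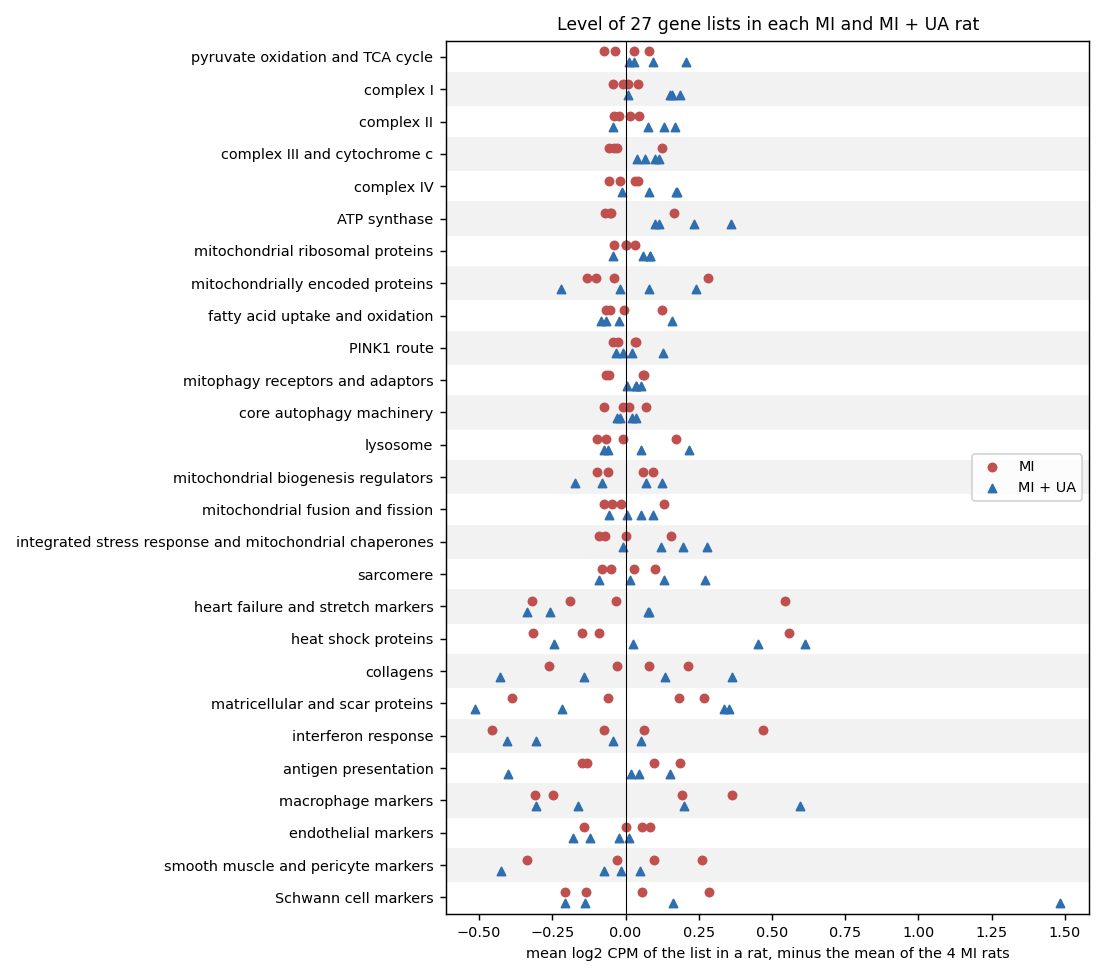
For 27 gene lists (vertical axis), the mean log2 CPM of the list's tested genes in each MI rat (circles) and each MI + UA rat (triangles), less the mean of the 4 MI rats (horizontal axis, log2 CPM units). The groups overlap in every list shown; in the TCA cycle the MI rats run from 6.98 to 7.14 and the MI + UA rats from 7.07 to 7.26 before this subtraction, while in the scar list they run from 4.94 to 5.6 and from 4.82 to 5.69.

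Genes of mitophagy had log2 fold changes close to zero. Pink1 was at 321, 308, 284 and 296 CPM in the MI rats and 331, 282, 306 and 368 CPM in the MI + UA rats, so that the groups overlapped. Its log2 fold change was 0.09 (SE 0.09, 95% interval -0.09 to 0.27), and with rat 66 moved to MI it was -0.042. Of the 6 tested genes of the PINK1 route, 4 were higher and 2 lower, with a median of 0.067 and 0 at an unadjusted p under 0.05. Of 12 mitophagy receptors and adaptors 9 were higher, with a median of 0.023. With rat 66 moved to MI these medians were -0.0313 and -0.0229, and without MI rat 36 that of the receptors and adaptors was -0.018. Phb2, an inner-membrane protein that binds the autophagosome once the outer membrane has ruptured, was the member at an unadjusted p under 0.05: it was at 23.8 to 27.9 CPM in the MI rats and 28.4 to 33.3 CPM in the MI + UA rats, without overlap (log2 fold change 0.24, SE 0.11). Sqstm1, the adaptor p62, had a log2 fold change of -0.07 (SE 0.08).

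The autophagy machinery downstream had values on both sides of zero. Of 26 genes of core autophagy 12 were higher and 14 lower, with a median of -0.0098. Uvrag, which acts with beclin 1 in autophagosome maturation, was at 11.4 to 12.9 CPM in the MI rats and 13 to 15.9 CPM in the MI + UA rats, without overlap (log2 fold change 0.27, SE 0.12). Its value with rat 66 moved to MI was 0.30. Among 19 lysosomal genes 14 were higher, with a median of 0.059 (0.0121 without MI rat 57, 0.115 without MI rat 89 and 0.147 with rat 66 moved to MI) and 0 at an unadjusted p under 0.05. Ppargc1a, the coactivator that drives mitochondrial biogenesis, was at 39.7, 31.7, 30.8 and 36.3 CPM in the MI rats and 40.9, 32.5, 31.7 and 44 CPM in the MI + UA rats. The log2 fold change was 0.11 (95% interval -0.12 to 0.34), and it was -0.0575 with rat 66 moved to MI. Opa1, which fuses inner membranes and shapes cristae, was at 96.2 ± 8.27 CPM in MI and 95.8 ± 8.82 CPM in MI + UA, with a 95% interval of the log2 fold change from -0.20 to 0.19. Over the 11 genes of fusion and fission 6 were higher and 5 lower.

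In the list of the integrated stress response and mitochondrial chaperones, 16 of 22 genes had positive values, with a median of 0.12 (0.0586 without rat 64 and 0.0347 with rat 66 moved to MI). At an unadjusted p under 0.05 were 3 of the 22, all higher mitochondrial chaperones, beside 1.86% higher among all genes. Hspd1, the folding chaperone HSP60 of the matrix, was at 45.1, 52.2, 36.1 and 44.8 CPM in the MI rats and 56.2, 53.2, 53.2 and 66.5 CPM in the MI + UA rats, without overlap. Its log2 fold change was 0.37 (SE 0.11, edgeR unadjusted p = 0.00287, adjusted p = 1), or 0.14 with rat 66 moved to MI. Its partner Hspe1 and the import motor Hspa9 had log2 fold changes of 0.25 (SE 0.12) and 0.19 (SE 0.09), which were 0.0692 and 0.0666 with rat 66 moved to MI, and Hspe1 was at 0.154 without MI rat 36. Atf4, the transcription factor of the integrated stress response, was at 64.1 ± 4.86 CPM in MI and 70.6 ± 7.13 CPM in MI + UA. Mthfd2, one of its targets, was the lowest member of the list, with a log2 fold change of -0.66 (SE 0.44). The highest member was Chac1, at 0.86.

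Cytosolic heat shock genes spread widely within both groups. Dnajb1, a co-chaperone induced by heat and stress, was at 12.3, 39.4, 9.96 and 17.6 CPM in the MI rats and 50.1, 12.8, 25.8 and 46 CPM in the MI + UA rats. Rats 57, 29 and 66 were the high ones, whatever their group. The mean log2 CPM over the 14 heat shock genes was 7.75, 7.64 and 7.81 in these 3 rats and between 6.88 and 7.22 in the 5 others. Dnajb1 had a log2 fold change of 0.87 (SE 0.36), which was 0.29 with rat 66 moved to MI. Sirt1, an NAD-dependent deacetylase, was at 34.6 to 40.1 CPM in the MI rats and 40.1 to 47.8 CPM in the MI + UA rats, which touched at 40.1 CPM (log2 fold change 0.22, SE 0.09). Of 18 genes of NAD metabolism and sirtuins 11 were higher. Hmox1, heme oxygenase 1, was at 17.7 to 20.4 CPM in the MI rats and at 19.7, 15.7, 22.2 and 45.9 CPM in the MI + UA rats. Rat 66 was the high one, and the log2 fold change of 0.49 (SE 0.23) became 0.028 without rat 66 and -0.37 with rat 66 moved to MI.

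Markers of heart failure overlapped between the groups. Nppa, the atrial natriuretic peptide gene that the ventricle expresses again under load, was at 318, 479, 344 and 181 CPM in the MI rats and 347, 252, 235 and 183 CPM in the MI + UA rats. MI rat 57 lay above every MI + UA rat, and the other MI rats spanned nearly the same range as MI + UA. The difference was -0.38 on the log2 scale (SE 0.28, 95% interval -0.97 to 0.21), -0.14 without MI rat 57 and -0.11 with rat 66 moved to MI. Nppb, the brain natriuretic peptide gene, was at 233 ± 89.3 CPM in MI and 221 ± 44.4 CPM in MI + UA, with a 95% interval of the log2 fold change from -0.54 to 0.40. Of the 11 markers of heart failure and stretch 3 were higher and 8 lower, with a median of -0.12 (-0.000115 without MI rat 57), and Myh7 was the member at an unadjusted p under 0.05. Acta1, the skeletal actin of the fetal program, had a log2 fold change of 0.25 (SE 0.28), and Ankrd23 one of -0.37 (SE 0.22).

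Ion channel genes had 5 of 23 members at an unadjusted p under 0.05, 2 higher and 3 lower, beside 3.79% of all genes, 1.86% higher and 1.92% lower. Kcnj3, a subunit of the acetylcholine-gated potassium channel, was at 44.5, 47.4, 52.1 and 48 CPM in the MI rats and 64.3, 48.5, 54.9 and 79.1 CPM in the MI + UA rats. Rat 58 was the MI + UA rat that lay within the MI range, and the log2 fold change was 0.37 (SE 0.11), or 0.044 with rat 66 moved to MI. Gja1, the gap junction protein of the ventricle, was at 403 ± 45.1 CPM in MI and 483 ± 101 CPM in MI + UA, with a log2 fold change of 0.26 (SE 0.12). The lower members were Hcn4, the pacemaker channel, with a log2 fold change of -0.41 (SE 0.14), or -0.14 with rat 66 moved to MI, Kcna5 with -0.66 (SE 0.26) and the T-type calcium channel Cacna1g with -0.36 (SE 0.17). Of these Gja1 and Kcnj3 were lower, and Cacna1g higher, in MI than in Sham at an edgeR adjusted p of 0.00835, 8.77e-05 and 0.000461. Calcium cycling genes were higher in 11 of 16 cases, 0 at an unadjusted p under 0.05; Atp2a2, the calcium pump of the sarcoplasmic reticulum, was at 2922 ± 190 CPM in MI and 3160.0 ± 361 CPM in MI + UA. Among adrenergic signalling genes, Gnas, the stimulatory G protein α-subunit, is counted under a pair of gene IDs. The weakly expressed ID was at 7.06 to 7.98 CPM in MI and 8.73 to 10.7 CPM in MI + UA, without overlap (log2 fold change 0.38, SE 0.14), while the main ID, at 188 ± 18.4 CPM in MI and 191 ± 11.6 CPM in MI + UA, had a log2 fold change of 0.02 (SE 0.08).

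Collagen genes of the scar showed no common direction. Col1a1 was at 553, 358, 512 and 669 CPM in the MI rats and 432, 757, 627 and 322 CPM in the MI + UA rats, against 177 ± 24.7 CPM in Sham. The lowest and the highest infarcted rat were both MI + UA rats, and the log2 fold change was 0.03 (SE 0.20, 95% interval -0.39 to 0.44). Col3a1 had a log2 fold change of 0.07 (95% interval -0.23 to 0.38), and Postn, periostin of activated fibroblasts, one of 0.06 (95% interval -0.59 to 0.71). Of 19 collagen genes 9 were higher and 10 lower, with a median of -0.015, while 17 of them were higher in MI than in Sham at an adjusted p under 0.05, beside 5.82% higher among all genes. Averaged over the collagens, log2 CPM was 6.54, 6.3, 6.64 and 6.78 in MI and 6.42, 6.93, 6.7 and 6.14 in MI + UA. The median of the collagens was 0.10 without MI rat 89 and 0.16 with rat 66 moved to MI.

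Of 21 matricellular and scar proteins 10 were higher and 11 lower in MI + UA, at a median of -0.029 on the log2 scale. Tnc, which was higher at 0.79, had the largest absolute change among them. Thbs1 alone of the 21 was at an unadjusted p under 0.05. Thbs1 encodes thrombospondin 1, which activates latent TGF-β and restrains vessel growth, and it was at 67.8, 74, 126 and 65.3 CPM in the MI rats and 43.8, 76.2, 62.7 and 38.9 CPM in the MI + UA rats. Rat 58 lay inside the MI range, and the log2 fold change was -0.60 (SE 0.21), against 2.04 for MI over Sham; without MI rat 61, the highest, it was -0.33. Comp and Ccn5, a cartilage matrix protein and a secreted CCN protein that were both below 1 CPM in Sham, had log2 fold changes of -0.43 (SE 0.28) and -0.32 (SE 0.20). Plod1, a collagen lysyl hydroxylase, was higher (0.29, SE 0.13) and Timp4, a metalloproteinase inhibitor of heart muscle, lower (-0.43, SE 0.20), both with overlapping groups.

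Markers of the scar's cells spread widely within both groups. The mean log2 CPM of 12 macrophage markers was 3.8, 3.86, 4.3 and 4.47 in the MI rats and 3.94, 4.3, 4.7 and 3.8 in the MI + UA rats. Rats 89, 58 and 64, from both groups, were high for collagens, scar proteins and macrophage markers together, and rats 57 and 66 were among the 3 lowest for each. The part of these scar and macrophage levels in the other results was not tested. Spp1, osteopontin, was at 19.7, 8.62, 23.7 and 61.2 CPM in the MI rats and 25.4, 76.8, 81.9 and 14.3 CPM in the MI + UA rats. Gpnmb, a marker of lipid-laden and scar macrophages, ran from 14.1 CPM in MI rat 57 to 136 CPM in MI + UA rat 64. Cd163, which marks resident macrophages, was the macrophage marker at an unadjusted p under 0.05, at 20.9, 30.9, 29.9 and 27.9 CPM in the MI rats and 18.1, 23.4, 23.1 and 18.1 CPM in the MI + UA rats (log2 fold change -0.41, SE 0.15). Here MI rat 36 fell among the MI + UA rats. Fibroblast markers were higher in 8 of 8 cases with a median of 0.040 (-0.0335 without rat 64 and 0.171 without MI rat 89) and 0 at an unadjusted p under 0.05, and cardiomyocyte markers in 6 of 7, where Myh6 was the member at that level.

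Endothelial and mural markers had negative medians. Of 9 endothelial markers 8 were lower, their median was -0.084 (-0.0289 without MI rat 89), with 0 at an unadjusted p under 0.05; von Willebrand factor, Vwf, had -0.28 (SE 0.14). Of 10 markers of smooth muscle and pericytes 8 were lower, with a median of -0.17 (-0.0125 without MI rat 36), and Tagln, a smooth muscle actin-binding protein, was at 32.5, 20.7, 33.5 and 23.6 CPM in the MI rats and 21.8, 23.5, 25.8 and 12 CPM in the MI + UA rats. Rat 66 was the lowest, and the median of the mural markers was 0.019 with rat 66 moved to MI. Of 12 genes of the angiotensin, endothelin and natriuretic receptor systems 10 were lower, and Ece1, the enzyme that releases active endothelin, had a log2 fold change of -0.24 (SE 0.10). Angpt1, the agonist of the endothelial receptor Tie2, was higher by a log2 fold change of 0.28 (SE 0.11), and Vegfa had 0.07 (SE 0.13).

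Inflammatory genes gave no common direction, apart from interferon-induced genes, which were lower in 12 of 13 cases. The median log2 fold change of the 13 was -0.34, and Ifit3, an antiviral protein, was at an unadjusted p under 0.05, at 5.58 ± 0.95 CPM in MI and 4.1 ± 0.969 CPM in MI + UA. Their mean log2 CPM was 3.64, 2.72, 3.24 and 3.1 in the MI rats and 3.23, 3.13, 2.87 and 2.77 in the MI + UA rats, so that MI rat 36 was the highest and MI rat 57 the lowest of all 8. The median was -0.0641 without MI rat 36 and -0.073 with rat 66 moved to MI. The exception was Bst2, with a log2 fold change of 0.24 (SE 0.13). Of 24 genes of cytokines, chemokines and the inflammasome 11 were higher and 13 lower, with a median of -0.075. Cxcl10, a chemokine that interferon induces, had a log2 fold change of -0.82 (SE 0.35), or -0.19 with rat 66 moved to MI. The largest absolute change of the list was a higher Il10, at 1.85. Complement genes were lower in 7 of 12 cases, with C3 at -0.78 (SE 0.38).

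Antigen presentation genes were lower in 10 of 13 cases with a median of -0.090, and RT1-Da, a class II gene of the rat major histocompatibility complex, was at an unadjusted p under 0.05 in the other direction (log2 fold change 0.34, SE 0.14, or 0.16 without rat 64). With rat 66 moved to MI the median of the list was 0.12. Several RT1 genes took values that fell into high and low rats regardless of group. RT1-CE16, a class I gene, was at 0.95 CPM in MI rat 36, 1.22 CPM in MI + UA rat 64 and 1.18 CPM in MI + UA rat 66, and between 11.4 and 24.6 CPM in the 5 other infarcted rats. RT1-Bb, a class II gene, was low in these same 3 rats, at 2.92, 3.65 and 3.04 CPM, and between 15.1 and 33.2 CPM in the 5 others. RT1 genes are near-identical copies that differ between animals of an outbred stock such as Wistar, so their counts are uncertain.

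Immediate early genes were divided. Of 18 tested, Atf3 and Fos were higher and Zfp36 and Myc lower at an unadjusted p under 0.05, beside 1.86% higher and 1.92% lower among all genes. Fos, a part of the transcription factor AP-1, had a log2 fold change of 0.59 (SE 0.25) and Zfp36, which destabilises cytokine transcripts, one of -0.41 (SE 0.14). Zfp36 was at 36.5, 67, 59 and 42.9 CPM in the MI rats and 35.1 to 41 CPM in the MI + UA rats, so that the MI + UA rats were close together and MI rats 57 and 61 stood above them, and without rat 57 the fold was -0.265 on the log2 scale. Npas2, a clock transcription factor, had a log2 fold change of -0.41 (SE 0.19), or -0.25 without rat 29, and the other 15 clock genes had no unadjusted p under 0.05.

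Of 16 tested enzymes that handle foreign compounds 9 were higher and 7 lower, and Cyp2e1 and Cyp2j4, both higher, were at an unadjusted p under 0.05, beside 1.86% higher among all genes. Cyp2e1, a cytochrome that oxidises small molecules such as ethanol, was at 2.71, 3.14, 3.94 and 4.56 CPM in the MI rats and 5.14, 2.95, 4.6 and 10.4 CPM in the MI + UA rats, far below the 20.1 ± 5.53 CPM of Sham. Its log2 fold change was 0.76 (SE 0.30), 0.27 without rat 66 and -0.26 with rat 66 moved to MI. Cyp2j4, an epoxygenase of arachidonic acid, had a log2 fold change of 0.57 (SE 0.23), and 0.54 with rat 66 moved to MI. Targets of the aryl hydrocarbon receptor, which urolithin A is known to bind, showed 0 of 6 at an unadjusted p under 0.05, and Cyp1b1 was at 40.4 ± 9.8 CPM in MI and 39.1 ± 6.1 CPM in MI + UA. Ceramide synthesis genes were higher in 8 and lower in 6 of 14 cases, 0 at an unadjusted p under 0.05. Among genes that break down or convert ceramides, S1pr1, a receptor of sphingosine 1-phosphate, had a log2 fold change of -0.39 (SE 0.16), with values of 86.4, 159, 153 and 132 CPM in the MI rats and 91.4, 135, 91.9 and 87.2 CPM in the MI + UA rats. Igf2 was lower by a log2 fold change of -0.39 (SE 0.16), and Irs2 stood at 0.53 (SE 0.27).

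Principal components were computed over the genes that varied most among the 8 infarcted rats, at an average log2 CPM of at least 1. The first 3 components did not sort these rats by treatment. The first 4 principal components took 29.2%, 18%, 14% and 11.7% of the variance. On the first, scores ran from -13.3 in MI + UA rat 58 to 20 in MI rat 57, with the groups interleaved. Genes with the most negative weights on it were Lyc2, Tnn, Mmp12, Ccl9, Sfrp4, Il1rn, Met and Spp1, and those with the most positive included the heat shock genes Hsph1 and Dnajb1. On the third, MI rat 36 stood alone at 17, with Col2a1 carrying the largest weight. Over the same genes, the median Euclidean distance between an MI and an MI + UA rat was 27.8 in log2 CPM units. It was 30.3 between pairs of MI rats and 29.6 between pairs of MI + UA rats.

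**Figure D5:**
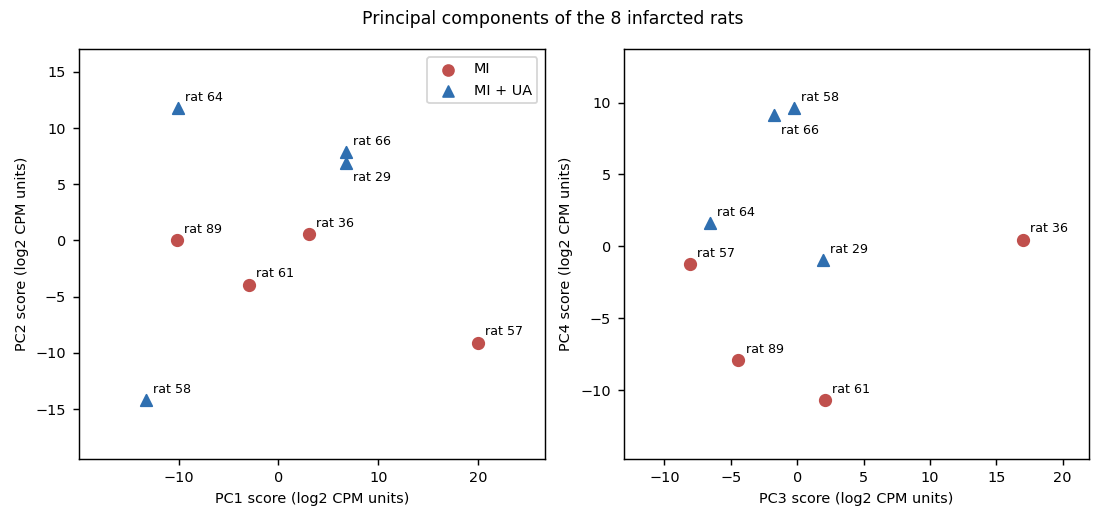
Scores of the 8 infarcted rats on principal components 1 and 2 (left) and 3 and 4 (right), in log2 CPM units, 1 labelled point per rat, circles for MI and triangles for MI + UA. The components were computed over the genes that varied most among these rats, at an average log2 CPM of at least 1. The groups mix on components 1, 2 and 3, where MI rats 57 and 36 are the extremes of components 1 and 3; on component 4 the MI rats lie at or below 0.467 and MI + UA rat 29, at -0.966, lies among them.

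Some of the widest spread came from genes that were close to 0 in single rats. Fam111a, which encodes a protease of virus restriction and DNA replication, was at 0.514 and 1.08 CPM in MI + UA rats 29 and 64 and between 65.3 and 169 CPM in the 6 other infarcted rats. Hba-a3, a haemoglobin gene with close copies, was listed at 0 in MI rats 36 and 57 and MI + UA rat 58, with a log2 fold change of 1.61 (SE 0.73), or 3.28 without MI rat 89. Low rats came from both groups for Hba-a3 and from MI + UA alone for Fam111a.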

How the data were processed

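RNA from sections of the left ventricle of 12 male Wistar rats was sequenced, 1 library per rat. Per the labels and the study's methods, the authors mapped reads with STAR 2.6.1c to the rat build mRatBN7.2 and deposited raw counts per Ensembl gene from htseq-count; the HTSeq version and strand setting are not given in the sources used here, and the labels name polyA RNA while their protocol describes ribosomal RNA depletion. The summary lines of the count table were left out of library sizes and tests; reads on genes were 42.9% to 47.2% of counted reads in MI + UA. Groups follow the sample labels.

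All 12 libraries entered a single fit in edgeR 4.0.16 (R 4.3.3, limma 3.58.1): TMM scaling, quasi-likelihood test, genes with at least 10 counts in total, contrast MI + UA minus MI, Benjamini-Hochberg adjustment, 95% intervals. The self-test on simulated counts used the same code. Library measures were compared by the exact permutation test over rats. Separate animals gave the replicates, so p-values measure the spread between rats. CPM values use TMM library sizes; the ratio of myosin counts is a plain ratio. Differences in level between genes were not tested, since CPM is not per length. A gene called low, abundant or weakly expressed is described by its CPM alone. Named genes were, at an average log2 CPM of at least 1, the 12 higher and 12 lower with the smallest unadjusted p, the 5 higher and 5 lower with the largest fold at an unadjusted p under 0.05, up to 3 members of each list at that p, 13 genes always named, and the 10 with the largest spread within groups at an average log2 CPM of at least 3; a few genes that this rule chose are not reported here. Other genes named as list members were chosen after their values were seen. The members and lists were chosen with earlier results of these data known. Lists are described by counts, by median log2 fold changes and by the mean log2 CPM of their genes in each rat, with no test. Alternatives were DESeq2 1.42.0, a fit of infarcted rats only, other filters and scalings, thinning to equal depth, rat 66 placed in MI, and leaving out each rat. Figures were drawn in Python 3.11.15 with matplotlib 3.10.9.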

Additional observations from a re-analysis of the deposited data

Results flagged for a closer look

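In 19 of 314 sets of 4 rats (6.05%), counting each library measure, named gene and list score in each group, the highest or lowest rat lay so far from the other 3 that its gap passed Dixon's 95% limit. The rate of about 1 in 20 behind this limit is for independent sets not chosen by their values. Some of the named genes were chosen for a wide spread and the sets are not independent, so that 6.05% cannot be read against it. Rat 57 supplied 6 of these, rat 58 5, rat 36 4, rat 66 2, and rats 61 and 64 1 each.

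Among the MI rats, rat 57 was high for Plod1, at 42.8 CPM against 30.5 to 32.1 CPM in the others. Its mean log2 CPM was high for complex III (6.57 against 6.39 to 6.42) and neutrophil markers (-0.437 against -1.41 to -1.26). It was low for adrenergic signalling (5.22 against 5.31 to 5.32), proliferation (0.823 against 1.33 to 1.42) and mast cell markers (0.142 against 0.868 to 0.906). Rat 36 was high for Col2a1, at 29.6 CPM against 0 in the others, and for the mean log2 CPM of ATP synthase (4.86 against 4.62 to 4.64) and glycolysis (5.8 against 5.66 to 5.68), and low for Phb2, at 23.8 against 27.2 to 27.9 CPM. The share of counted reads on genes was low in rat 61, at 43.3% against 44.6% to 44.8%.

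Among the MI + UA rats, rat 58 had a low share of reads on genes, 42.9% against 46.7% to 47.2%. It was also low for Kcna2, at 24.5 against 41.5 to 44.7 CPM, for Hba-a3, at 0 against 6.19 to 9.48 CPM, and for the mean log2 CPM of xenobiotic enzymes (3.29 against 3.43 to 3.44), and it was high for S1pr1, at 135 against 87.2 to 91.9 CPM. Rat 66 was low for ceramide synthesis (2.86 against 3.1 to 3.15), and it was the rat with Col2a1 above 0, at 0.0563 CPM. B cell markers were high in rat 64 (-1.16 against -1.81 to -1.74).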

How the results depend on the processing

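The count of genes at an adjusted p under 0.05 was 0 in edgeR, DESeq2, the fit of infarcted rats only, both other scalings, the stricter filter, thinning and with rat 66 in MI. It was 3 with no filter beyond 1 count (Col2a1, Enc1 and ENSRNOG00000070004) and between 0 and 1 with each rat left out, the 1 being Enc1 without MI rat 36. Unadjusted calls ran from 481 in DESeq2 to 917 with no filter. Genes without overlap numbered 243 to 642 with each rat left out and, an alternative chosen after seeing the data, 1461 without rats 29 and 66, where fewer rats make separation easier by construction; leaving out any 1 infarcted rat gave at least 458.

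The share of reads on genes differed by 1.17 to 2.6 percentage points with each rat left out, the highest without rat 58, where the exact permutation p was 0.0286, and by 0.863 with rat 66 in MI. The share on mitochondrially encoded genes differed by -1.15 points with rat 66 in MI and -0.594 to 1.86 with each rat left out, log2 depth by -0.223 and -0.0256 to 0.468, and genes detected by -99.8 to 98.2 with each rat left out. With rat 66 in MI the log2 fold change turned sign for Cyp2e1 (-0.26), Hmox1 (-0.366), Pink1 (-0.0417), Ppargc1a (-0.0575), RT1-Bb (0.119), RT1-CE11 (-0.113) and Col11a1 (0.182). It was smaller by over 1.5 times for Kcna2 (0.265), Slc5a3 (0.415), Hspe1 (0.0692), Hspa9 (0.0666), Mrps30 (0.0775), Phb2 (0.125), Sirt1 (0.0714), Gnas (0.183), Angpt1 (0.148), Plod1 (0.116), Hba-a3 (1.02), Slc4a1 (0.371), Olr1058 (-1.1), Nit2 (-0.303), Aox4 (-0.271), Kcna5 (-0.368), Thbs1 (-0.292), Timp4 (-0.118), Tagln (-0.0463), Cd163 (-0.241), Ifit3 (-0.205), Zfp36 (-0.271), S1pr1 (-0.215), Igf2 (-0.251), Rpl17 (-0.323) and Tfam (-0.0523), and larger for Spp1 (1.22), Postn (0.481), Col1a1 (0.324), Col3a1 (0.257), Cxcl13 (0.784), Nppb (-0.186) and Fam111a (-1.3). Of the 65 list medians, 36 turned sign when at least 1 of the 8 infarcted rats was left out and 27 with rat 66 in MI. Beside those given above, the 27 were mitochondrially encoded proteins (-0.105), heat shock proteins (-0.0909), calcium cycling (-0.0264), ion channels (-0.0279), fusion and fission (-0.0124), biogenesis regulators (-0.0423), scar proteins (0.139), complement (0.0391), cytokines (0.0221), cardiomyocyte markers (-0.0684), branched-chain and ketone oxidation (-0.0707), immediate early genes (-0.0393), adrenergic signalling (-0.0335), angiogenic factors (-0.0134), matrix crosslinking (0.0874), the TGF-β pathway (0.046), T and NK cell markers (0.121), muscle protein breakdown (-0.00126) and cell cycle inhibitors (0.0609). Other list medians that moved by over 1.5 times when 1 rat was left out included those of the TCA cycle (0.0357), complex I (0.0286), complex IV (0.0491), calcium cycling (0.00252), heat shock proteins (-0.0196), cardiomyocyte markers (-0.0221) and antigen presentation (-0.0184) without rat 66, complex III (0.0346), the PINK1 route (0.037) and core autophagy (-0.0419) without MI rat 89, cytosolic ribosomal proteins (-0.0574) and immediate early genes (-0.0537) without MI rat 36, NAD metabolism (0.0247) without MI rat 57, macrophage markers (-0.106) without rat 64, and fusion and fission (-0.00318) and ion channels (-0.0578) without rat 29. The fold of Dnajb1 was 1.38 without MI rat 57, and that of Cxcl10 was -0.483 without rat 66 and -1.28 without rat 29. The fold turned for Opa1 with no filter (0.00101), for Col11a1 on thinning (0.00892), and without rats 29 and 66 for Pink1 (-0.045), Ppargc1a (-0.121) and Col11a1 (0.459). List medians without rats 29 and 66 included -0.00151 for complex I and -0.0262 for mitochondrial DNA maintenance and transcription. In that setting complex II was at 0.0128 and mitochondrial ribosomal proteins at 0.00732. With each rat left out the ranges of named genes that crossed zero were -0.0478 to 0.0579 for Opa1, -0.877 to 0.26 for Col11a1, -0.0393 to 0.198 for Col3a1, -0.189 to 0.208 for Col1a1, -0.273 to 0.314 for Postn, -0.183 to 0.232 for Nppb, -0.65 to 0.921 for Cxcl13 and -0.0878 to 0.866 for RT1-CE11. The cause was not tested. Over 88 named genes, 1811 of 1846 values under alternatives kept direction and side of the threshold, and over 65 lists 1331 of 1364 medians moved by less than the spread between rats. These counts say little about robustness. No named gene passed the threshold in the main fit, so most values could be expected to stay on that side. A list median could turn sign and still have moved by less than the spread. The stricter filter removed some genes and lists, and overlap was not counted under it or with no filter. No paired analysis was possible because each rat is in a single group and the rat numbers do not repeat between groups. Differences were least certain for genes below an average log2 CPM of 1, and the part of depth in this was not tested.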

Other observations

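Protein synthesis genes and markers of rarer cells had values on both sides of zero. Of 82 cytosolic ribosomal protein genes 46 were higher and 36 lower in MI + UA, at a median of 0.014 on the log2 scale, and 5 were at an unadjusted p under 0.05, 4 of them higher, beside 3.79% of all genes and 1.86% higher. Rpl17 was at 20 ± 4.23 CPM in MI and 14.4 ± 1.46 CPM in MI + UA, whereas Rps3a and Rpl30 had positive log2 fold changes of 0.20 and 0.29; genes of this kind have many near-identical copies. Of 12 proliferation genes 7 were higher, with a median of 0.017 that was -0.134 without rat 58. Of 6 adipocyte markers 4 were lower, and Fabp4, which carries fatty acids in fat and capillary cells, had a log2 fold change of -0.26. Slc4a1, the anion exchanger of red cells, was at 2.35 to 6.43 CPM in the MI rats and 4.47 to 7.6 CPM in the MI + UA rats. All 4 B cell markers were lower, with a median of -0.81 (-0.348 with rat 66 moved to MI), at mean log2 CPM values below 0 in every MI and every MI + UA rat.

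Cxcl13, a chemokine that draws B cells, ran from 3.88 CPM in rat 66 to 32.2 CPM in rat 64, both MI + UA rats. Col11a1 was at 3.45 to 23.4 CPM in the MI rats and 5.14 to 25.4 CPM in the MI + UA rats. RGD1565462, an uncharacterised gene whose copies make its counts uncertain, was at 26.5, 6.27, 21.1 and 2.93 CPM in the MI rats and 10.9, 3.21, 3.79 and 9 CPM in the MI + UA rats.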
